A study of Caenorhabditis elegans with 4 samples.

Results

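The X chromosome of late Caenorhabditis elegans embryos carried 482 regions of histone H3 lysine 4 trimethylation (H3K4me3) that met no peak of the COMPASS subunit CFP-1. They were selected on the deposited ChIP-seq peak positions alone. H3K4me3 peaks of the samples RC03 and RC04 that overlapped by 1 bp or more were joined, and joined intervals with a peak from each sample were kept as H3K4me3 regions. This gave 8050 regions, of which 1396 lay on X, and 482 of those overlapped no CFP-1 peak of either CFP-1 sample. The remaining 914 regions on X met a CFP-1 peak. The absence of a peak means only that the authors' peak caller listed none there; read depth is unknown, so binding below its limit was not detectable.

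The H3K4me3 group and the CFP-1 group each held 2 samples, numbered RC03 and RC04. By the labels, all were made from whole late embryos that had been aged for 3.5 hours after bleaching of adults. File names and peak names carry a larval stage instead, and the labels were followed throughout. All 4 samples came from strain JA1597, so every group carries the same transgene, a GFP-tagged copy of CFP-1 inserted at 1 site and driven by the dpy-30 promoter. The H3K4me3 samples were immunoprecipitated with an antibody to the mark and the CFP-1 samples with anti-GFP serum, so only tagged CFP-1 could be recovered. The labels do not say whether untagged CFP-1 was also present, and no sample without the transgene was analysed here. Whole embryos mix many cell types, so a region marked in few cells and a region marked weakly in all cells cannot be told apart. The labels do not tell whether the numbers RC03 and RC04 mark separate cultures, and their spread may be technical.

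H3K4me3 is placed at the promoters of active genes by COMPASS, in which the methyltransferase SET-2 works with CFP-1, a zinc finger protein that binds CpG-containing DNA. DPY-30, another COMPASS subunit, is shared with the dosage compensation complex, which binds both X chromosomes of hermaphrodites and lowers their transcription. In C. elegans, SET-16 is a second methyltransferase of the same family, which works in a complex of its own. X is also poor in genes of the germline and comparatively rich in genes of somatic tissues such as muscle and neurons.

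In the H3K4me3 lists, 1976 peaks in RC03 and 2169 peaks in RC04 lay on X, and in the CFP-1 lists 1501 and 1559 did. The 482 regions without CFP-1 were made of 530 peaks of the RC03 list and 561 peaks of the RC04 list. A single peak of each list formed 384 of them (79.7%), and the most peaks that 1 list gave to a region was 5. Together they covered 190 kb, or 1.07% of X, at a mean of 27.2 regions per Mb. The 914 X regions with CFP-1 covered 918 kb, so regions without CFP-1 held 34.5% of the marked regions on X and 17.1% of their base pairs.

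The share of marked regions without CFP-1 on X lay among the shares of the autosomes. It was 34.5% on X (482 of 1396, 95% exact binomial interval 32.0 to 37.1%), against 31.3% over all chromosomes (2522 of 8050). Among the autosomes it ran from 24.1% on III (21.8 to 26.5%) over 27.0% on I, 28.1% on IV and 36.2% on II to 38.1% on V (35.4 to 40.8%). X therefore stood above I, III and IV, whose intervals ended at or below 30.7%, and its interval overlapped those of II and V. These shares restate how the regions were chosen and are given as a description. The count of 482 changes with the demand for both H3K4me3 samples: with all peaks of 1 list as regions it was 1101 without H3K4me3 RC03 and 928 without H3K4me3 RC04, or 50.8% and 47.0% of the regions on X. The intervals cover counting error only, since regions of 1 chromosome share their samples. The comparisons below set regions of the same samples against each other, so no exchange of samples can test them, and no difference below carries a test.

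**Figure D1:**
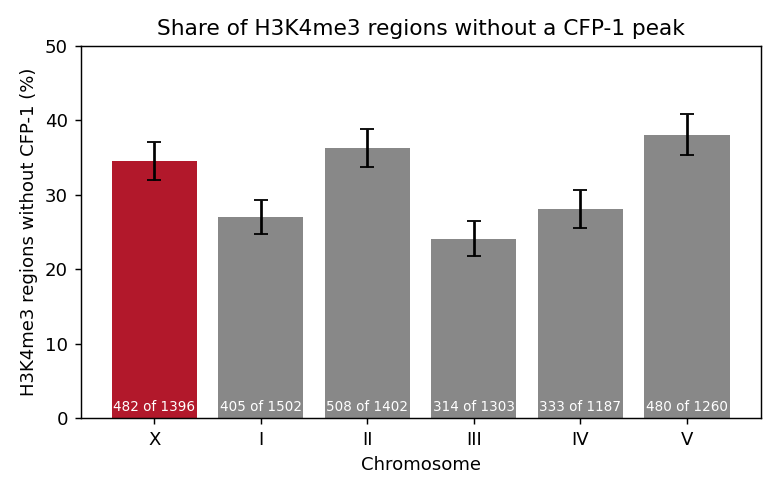
Share of H3K4me3 regions that overlap no CFP-1 peak (y axis, percent) on X and on each autosome (x axis), with 95% exact binomial intervals as bars and the counts at the foot of each column. X, at 34.5%, lies between the lowest autosome, III at 24.1%, and the highest, V at 38.1%.

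Regions without CFP-1 on X were narrow. Their median width was 306 bp, with quartiles of 213 and 443 bp and a range of 105 to 2534 bp. The X regions with CFP-1 had a median of 812.5 bp, with quartiles of 457 and 1261 bp, and reached 6212 bp. A width under 200 bp was found in 100 regions without CFP-1 (20.7%) and in 45 with it (4.92%), and a width of 1000 bp or more in 21 (4.36%) and in 354 (38.7%). A wide region is met by a CFP-1 peak more often than a narrow one, so this contrast is tied to the way the regions were chosen. Autosomal regions without CFP-1, chosen in the same way, had a median of 309 bp, with chromosome medians from 290 bp on I to 326 bp on II. The X value lay inside that range. With 1 H3K4me3 list as regions the median on X was smaller, 157 bp without RC03 and 178 bp without RC04.

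**Figure D2:**
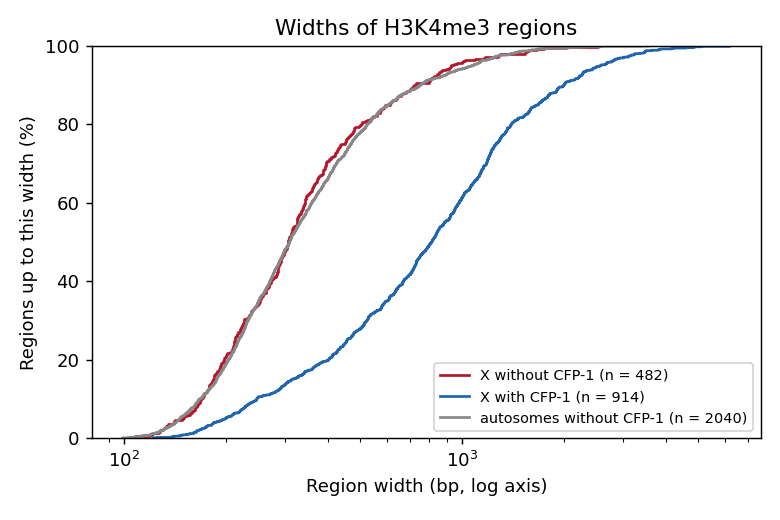
Cumulative share of regions (y axis, percent) up to a given width (x axis, bp, log scale) for X regions without CFP-1, X regions with CFP-1 and autosomal regions without CFP-1. The curves of the regions without CFP-1 run close together on X and on autosomes, with medians of 306 and 309 bp, and the X regions with CFP-1 lie to the right of both, with a median of 812.5 bp.

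The mark was called weakly at most of these regions. The strength of a peak is the authors' own score, the −log10 of a p-value or of a q-value, and a region takes the highest score of its peaks in each list. In RC03 the 482 regions scored from 1.33 to 54.5, with a median of 5.21 and quartiles of 3.74 and 6.99. In RC04 they scored from 1.49 to 52.7, with a median of 5.46 and quartiles of 3.99 and 7.76. The median over all chromosomes and peaks of a list was 6.84 in RC03 and 6.61 in RC04, so the typical member sat below the middle of its list. X regions with CFP-1 had median scores of 20.6 in RC03 and 21.2 in RC04. The score grows with width, and width is tied to the choice of regions, so this contrast is not independent of that choice.

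For a view within each list, scores were turned into percentile ranks over all peaks of the list and averaged over both lists. The median mean rank was 36.5 for X regions without CFP-1 and 72.4 for X regions with CFP-1. Mean rank rose with width in both groups (Spearman rho 0.60 without CFP-1 and 0.73 with it, as a description). The rank contrast is therefore also tied to the way the regions were chosen, and it was not measured at equal width. Both lists ranked 275 of the 482 regions (57.1%) below their median, both ranked 94 (19.5%) above it, and 4 regions (0.830%, exact interval 0.227 to 2.11%) ranked above the 75th percentile in both. For X regions with CFP-1 these counts were 120 (13.1%), 693 (75.8%) and 377 (41.2%) of 914. Autosomal regions without CFP-1 had a median rank of 37.3, with chromosome medians from 34.8 on V to 38.7 on IV, which bracket the X value. Of them, 27 of 2040 (1.32%, 0.874 to 1.92%) ranked above the 75th percentile in both lists.

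A peak in both lists was a condition of the choice, so only the strength and the extent of the calls could differ between the lists. Across the 482 regions, RC03 and RC04 scores had a Spearman rho of 0.51, against 0.95 across the 914 X regions with CFP-1 and 0.56 across the autosomal regions without it. These are descriptions over regions that share the same libraries, and the narrow range of weak scores bears on them. The percentile ranks of a region differed by a median of 11.4 between the lists, against 4.01 at X regions with CFP-1 and 11.3 at autosomal regions without it. The base pairs called in both lists made up a median of 60.2% of an X region without CFP-1 (quartiles 38.9 and 74.8%) and 83.3% of one with CFP-1. At autosomal regions without CFP-1 the median was 58.8%. Scores were also stepped. The 482 regions held 174 different RC03 scores and 183 different RC04 scores, and 32 regions shared the RC03 score of 3.74.

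**Figure D3:**
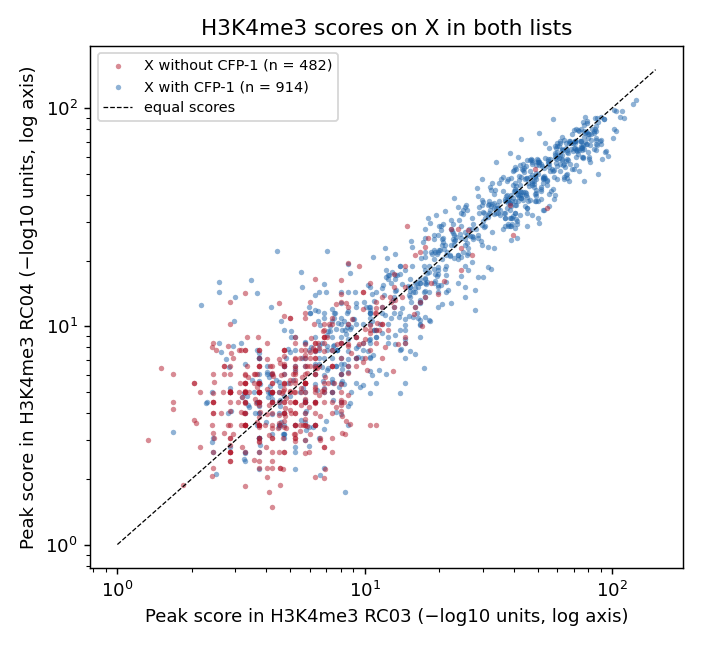
Highest H3K4me3 peak score of each X region in RC03 (x axis) and RC04 (y axis), both in −log10 units on log scales, for regions without CFP-1 and regions with CFP-1. Regions without CFP-1 gather at low scores, with medians of 5.21 and 5.46, and scatter around the line of equal scores more widely (rho 0.51) than regions with CFP-1 (rho 0.95). The stacked points are tied scores.

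The largest disagreements were between low RC03 and middling RC04 ranks. The region at positions 3397950 to 3398400 scored 2.85 in RC03 and 12.9 in RC04, which are the 10.7th and 67.0th percentiles. The region at 4443906 to 4444224 scored 2.41 and 8.03, and the one at 8857647 to 8857883 scored 2.44 and 8.37. Over all 482 regions the RC04 rank was the higher one in 277 and the RC03 rank in 205. This lean was not particular to them. RC04 ranked higher in 581 of 914 X regions with CFP-1, 1116 of 2040 autosomal regions without it and 2876 of 4614 with it. The weakest regions were low in both lists. Positions 1553396 to 1553608 scored 1.84 in RC03 and 1.88 in RC04, 8853916 to 8854048 scored 2.41 and 2.07, and 2518946 to 2519156 scored 2.44 and 2.24. All of these lie near the lowest scores in the H3K4me3 lists, 1.30 in RC03 and 1.32 in RC04.

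Calls that did not recur were frequent among marked intervals without CFP-1. Merging both H3K4me3 lists on X without asking for both samples gave 1147 intervals without a CFP-1 peak, of which 482 (42.0%, 39.1 to 44.9%) were called in both lists, 268 in RC03 alone and 397 in RC04 alone. Of 1055 merged X intervals with CFP-1, 914 (86.6%, 84.4 to 88.6%) were called in both. The autosomal values were 38.9% (37.6 to 40.2%) without CFP-1 and 85.3% (84.3 to 86.2%) with it. Intervals with CFP-1 also scored higher, with a median RC03 score of 20.6 on X where both lists called them. Joining calls of both lists can widen an interval and so its reach to a CFP-1 peak. Recurrence was not compared at equal score or width. Intervals on X without CFP-1 that were called once had a median width of 134 bp in RC03 and 127 bp in RC04, with median scores of 3.29 and 3.52. In the regions called in both lists, the bases called in 1 list had a median of 227 bp in RC03 and 230 bp in RC04, and the median scores were 5.21 and 5.46.

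The strongest H3K4me3 regions without CFP-1 scored well above the typical one, and mean ranks fell gradually from the highest down. The highest, at positions 16509119 to 16509928 (810 bp), scored 48.8 in RC03 and 52.7 in RC04, a mean rank of 84.9. Its nearest CFP-1 peak lay 3652 bp away and its nearest H3K4me3 region 23168 bp away, so it stood alone. The next, at 7769461 to 7770189 (729 bp), scored 54.5 and 34.7 and lay 6545 bp from a CFP-1 peak of RC04 alone, whose score of 3.78 was low. The one after it, at 4576583 to 4577235 (653 bp), scored 38.8 and 36.0. A CFP-1 peak with a score of 53.1 ended 15 bp before it, and an H3K4me3 region with CFP-1 lay 43 bp away. The region at 10132221 to 10132600 (380 bp) scored 39.7 and 26.1 and was 6124 bp from a CFP-1 peak. These 4 regions are the ones above the 75th percentile in both lists.

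The other 6 of the 10 highest-ranked regions had mean ranks from 72.6 to 75.5. Positions 8147374 to 8147800 scored 26.3 in RC03 and 27.8 in RC04, and positions 8155386 to 8156105, 7585 bp further along, scored 22.2 and 28.0. The nearest CFP-1 peak of both was the same one, at 8157046 to 8157429, with a score of 105.1. It lay 9245 bp from the first and 940 bp from the second. Positions 2638460 to 2639084 scored 23.9 and 28.0, with a CFP-1 peak 117 bp away. Positions 16541370 to 16542031 scored 24.6 and 22.8, with the nearest CFP-1 peak 3623 bp away. The last 2, at 10921876 to 10923898 (27.1 and 21.2) and 14577917 to 14579670 (18.1 and 25.3), were also among the 5 widest.

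Wide regions without CFP-1 were few. The widest, at 3903091 to 3905624, spanned 2534 bp and scored 18.5 in RC03, as a single peak, and 15.8 in RC04, in 3 peaks. Both lists covered 93.9% of its bases. The next, at 17441993 to 17444025 (2033 bp), scored 8.37 and 12.8, and the region at 10921876 to 10923898 followed with 2023 bp. Positions 14577917 to 14579670 spanned 1754 bp and positions 12084788 to 12086458 spanned 1671 bp. The last of these scored 14.2 in RC03 and 13.6 in RC04. All 5 lay in stretches of H3K4me3 regions at most 1000 bp apart that included a region with CFP-1. The region at 12084788 to 12086458 was directly adjacent to one, and it belonged to a stretch of 11 regions. Over all 482 regions, width and mean rank had a Spearman rho of 0.60, as a description.

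Without CFP-1, regions thinned out steeply as the score rose, on X much as on autosomes. All 8050 H3K4me3 regions were divided into quintiles of mean rank. In the lowest quintile 220 of 313 X regions (70.3%, 64.9 to 75.3%) had no CFP-1, and in the quintiles above it 170 of 297 (57.2%), 81 of 313 (25.9%) and 11 of 313 (3.51%). In the highest quintile none of 160 X regions lacked CFP-1, which allows a share of up to 2.28% by the exact interval; 2 of 1450 autosomal regions did. In each quintile the X share lay inside the range of the 5 autosomes, for example 63.3 to 77.9% in the lowest and 22.0 to 36.1% in the middle one. The same was seen by width. Of X regions under 300 bp, 231 of 356 (64.9%) had no CFP-1, against 56.1 to 71.8% on the autosomes, and of those of 1000 bp or more 21 of 375 (5.60%) had none, against 2.73 to 9.43%. The highest quintile held 11.5% of all X regions and 21.8% of all autosomal regions.

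**Figure D4:**
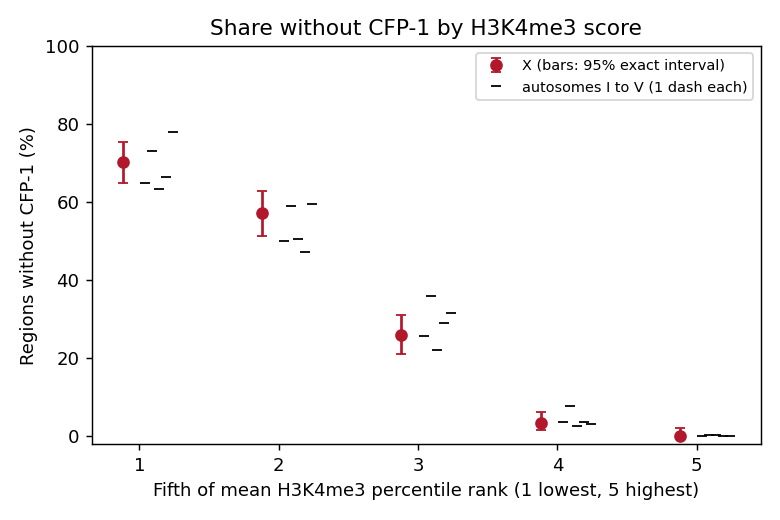
Share of H3K4me3 regions without CFP-1 (y axis, percent) in 5 classes of mean H3K4me3 percentile rank (x axis, 1 lowest to 5 highest), as points with 95% exact binomial intervals for X and as 1 dash for each autosome. On X the share was 70.3% in the lowest class and 3.51% in the class numbered 4, with none of 160 regions in the highest, and X lay within the span of the autosomes in all 5 classes.

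Many regions without CFP-1 lay close to a CFP-1 peak that they did not touch. The median gap to the nearest CFP-1 peak of either list was 1214 bp, with quartiles of 410.5 and 3550 bp. Measured to each list alone it was 1543.5 bp to RC03 and 1454 bp to RC04. A CFP-1 peak lay within 100 bp of 41 regions (8.51%, 6.17 to 11.4%) and within 1000 bp of 209 (43.4%), while 44 regions (9.13%, 6.71 to 12.1%) lay more than 10000 bp from any. Of the autosomal regions without CFP-1, similar shares lay near a CFP-1 peak, 8.87% within 100 bp and 40.7% within 1000 bp. Their median gap was 1487 bp, and 15.1% (13.6 to 16.8%) lay more than 10000 bp away. That autosomal share was uneven, from 7.65% on I to 29.4% on V, and the chromosome medians ran from 1021 bp on I to 3161.5 bp on V. Both X values fell inside these ranges. The gap had almost no relation to strength or width across the X regions (Spearman rho 0.02 with mean rank and -0.06 with width).

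**Figure D5:**
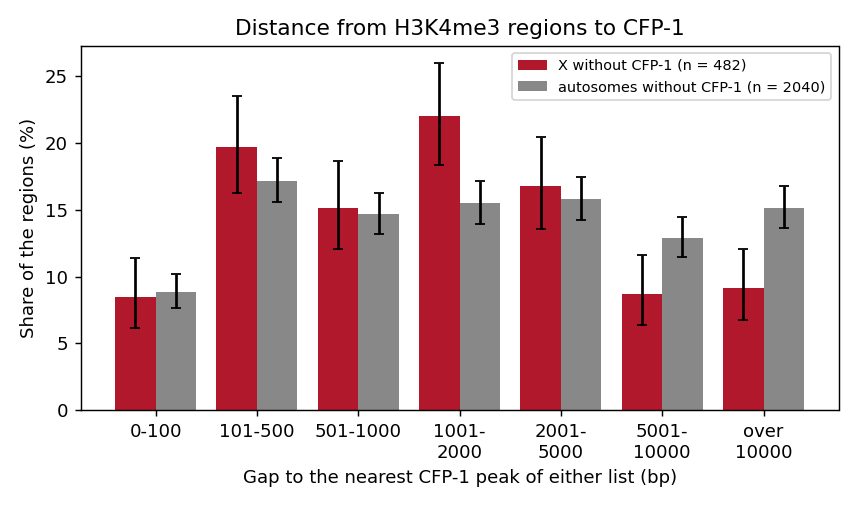
Share of regions without CFP-1 (y axis, percent) by the gap to the nearest CFP-1 peak of either list (x axis, bp), for X and for the autosomes together, with 95% exact binomial intervals as bars. Gaps over 10000 bp made up 9.13% on X and 15.1% on autosomes, where single chromosomes ran from 7.65% to 29.4%.

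The choice of a 1 bp overlap separated regions with very similar values. Just inside it, the region at 12843239 to 12843602 began directly after an RC04 CFP-1 peak with a score of 2.20, and its H3K4me3 scores were 11.2 in RC03 and 10.4 in RC04. The regions at 34677 to 34931, 8304532 to 8305002, 11837607 to 11838168 and 1486047 to 1486281 lay 4, 5, 7 and 10 bp from a CFP-1 peak, with H3K4me3 scores between 3.20 and 14.3. The CFP-1 peaks beside them scored from 2.20 to 34.1. Just outside it, and so counted as having CFP-1, 9743284 to 9743470 shared 1 bp with a CFP-1 peak, 11377205 to 11379206 shared 2 bp, and 2519900 to 2520590, 6818369 to 6819556 and 10083483 to 10083643 shared 3 bp each. Their H3K4me3 scores ran from 3.44 to 16.5, and the CFP-1 peaks they touched scored from 2.43 to 9.75. Of these 5, none overlapped a CFP-1 peak of both lists.

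The most distant region, at 6689147 to 6689455, lay 35726 bp from any CFP-1 peak and scored 4.71 in RC03 and 4.48 in RC04. The pair at 14200149 to 14200624 and 14200940 to 14201047, 315 bp apart, lay 25938 and 26729 bp away, and their nearest CFP-1 peak was a strong one with a score of 148.1. Their H3K4me3 scores were 4.71 and 7.76 at the first region and 3.16 and 3.52 at the second. The region at 6867620 to 6867798, with scores of 4.54 and 2.24, was 25342 bp from CFP-1, and the one at 1553993 to 1554192, with 4.57 and 1.88, was 24522 bp away. All 5 were at or below the 55.4th percentile of both lists.

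The CFP-1 peak nearest to a region could lie on the mark or apart from it. Merging both CFP-1 lists, the nearest interval lay on another H3K4me3 region in 314 of 482 cases (65.1%, 60.7 to 69.4%), and in 135 (28.0%) it met no H3K4me3 peak of either list. For the autosomal regions without CFP-1 these shares were 64.9% and 26.8%, and among all 1764 merged CFP-1 intervals on X they were 57.4% and 37.7%. The nearest interval was called in both CFP-1 lists in 294 cases (61.0%, 56.5 to 65.4%). On the autosomes that share was 69.6% (67.6 to 71.6%), with chromosomes from 63.5% on V to 76.8% on I, so X lay just below the lowest of them. Recurrence of CFP-1 was also low on X as a whole, at 69.0% of the 1764 intervals, against 69.1% on V to 77.3% on I. Where the nearest interval was in both lists, its median CFP-1 score percentile was 50.1 on X and 50.4 on autosomes. The 482 regions shared 320 nearest CFP-1 intervals, so some regions had the same nearest interval. The 2040 autosomal regions without CFP-1 shared 1296.

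Regions without CFP-1 mostly lay close to other H3K4me3 regions. The nearest one was a median of 246 bp away, with quartiles of 69 and 2415 bp, and the nearest one with CFP-1 was 1640 bp away. The neighbour was wider in 330 cases (68.5%), had the higher mean rank in 332 (68.9%) and held CFP-1 in 234 (48.5%). Of all 1396 X regions, 914 held CFP-1, which is a larger share. Regions without CFP-1 were narrow and weakly scored, so a wider and higher-ranked neighbour is tied to the way they were chosen. A region with CFP-1 lay within 1000 bp of 196 (40.7%, 36.2 to 45.2%), on 1 side of 170 and on both sides of 26. On the autosomes 35.1% had such a neighbour, from 24.8% on V to 42.5% on I, and X lay inside that range.

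Linking H3K4me3 regions at most 1000 bp apart placed the 482 regions in 3 settings. In 142 stretches that also included a region with CFP-1 there were 238 of them (49.4%, 44.8 to 53.9%), 157 (32.6%, 28.4 to 37.0%) had no H3K4me3 region within that distance, and 87 (18.0%, 14.7 to 21.8%) formed 38 stretches made only of regions without CFP-1. Of these stretches 32 were pairs, 3 held 3 regions, 2 held 4 and 1 held 6. The settings differed little in width and strength, with median widths of 323.5, 286 and 325 bp and median mean ranks of 35.7, 39.1 and 38.5. The gap to CFP-1 was a median of 629.5 bp in stretches with CFP-1, 3144 bp for lone regions and 3259 bp in stretches without it. The first setting was defined by a linked region with CFP-1, so its shorter gap is tied to that definition. The share in stretches with CFP-1 was above the autosomal range of 29.0% (V) to 46.9% (I), but the interval of X includes the value of I. The share in stretches without CFP-1 was just below the autosomal range of 18.3% (IV) to 36.5% (V).

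Regions without CFP-1 were found along the whole of X. In 3 parts of equal length, from left to right, 176, 174 and 132 regions had no CFP-1, and 331, 296 and 287 had it. The shares without CFP-1 were 34.7% (30.6 to 39.0%), 37.0% (32.6 to 41.6%) and 31.5% (27.1 to 36.2%), with overlapping intervals. By 1 Mb bins the number without CFP-1 ran from 12 to 39. The bins with the lowest and the highest share were neighbours, and they are named because of their values. Between 15 and 16 Mb 12 of 63 regions (19.0%, 10.2 to 30.9%) had no CFP-1, and between 16 and 17 Mb 34 of 68 (50%, 37.6 to 62.4%) had none. The bin from 16 to 17 Mb held the highest-ranked region at 16509119, the region at 16541370 and a stretch of 4 regions from 16758399 to 16761326, in which RC03 scores were 2.81 to 6.47 and RC04 scores 6.61 to 8.37.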

How the data were processed

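Chromatin of late embryos was immunoprecipitated and sequenced on the Illumina platform, per the labels' protocols. The authors used BWA, MACS2 2.0.10 and genome build ce10, per the submitters' processing notes, and deposited 1 peak list per sample, not pooled. The deposited score is on a −log10 scale, of a p-value or a q-value; the sources used here do not give which, nor the settings and control of the peak caller. It grows with depth and width, so it was ranked within a list only. File names and peak names carry a larval stage, whereas the labels give late embryos, and the labels were followed. Read depth is unknown.

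Regions, gaps, widths and ranks were computed with Python 3.11.15, numpy 2.4.6, pandas 2.3.3 and scipy 1.17.1, and plots with matplotlib 3.10.9. bedtools 2.31.1, run on the already merged regions, gave the same number without a CFP-1 peak, 482, and the overlap code was tested on simulated data. Positions are 1-based in ce10. The length of X was taken as its last peak end, 17.7 Mb. Intervals are exact binomial (Clopper-Pearson) at 95%. Members, lists and settings were chosen with earlier results of these data known. The regions named were set by rule: 10 of highest rank, 5 widest, 5 each nearest to CFP-1, barely overlapping it and farthest from it, 3 of lowest rank and 3 of largest difference between lists. The only gene table used here follows another build, WBcel235, so no genes or sequences were assigned to regions.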

Additional observations from a re-analysis of the deposited data

How the results depend on the processing

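The number of X regions without CFP-1, 482, moved with the score limit, to 89 among the higher-scored H3K4me3 peaks, and with the demand for both H3K4me3 lists, to at most 1147. With 1 list of either antibody left out, the number was 536 to 1101, the share of X regions 38.4 to 50.8%, the median width 157 to 314 bp, the median rank 30.7 to 37.8, the median gap to CFP-1 946.5 to 1480 bp, the share near a region with CFP-1 36.6 to 45.7% and the share in the central 33.3% of X 35.1 to 36.8%. Among these settings the numbers over 1.5 times the original were 1101 without H3K4me3 RC03 and 928 without H3K4me3 RC04. In the same order of results, H3K4me3 intervals of either list gave 1147, 52.1%, 174 bp, 25.8, 1146 bp, 43.9% and 35.0%. H3K4me3 peaks above their list's median gave 89, 11.4%, 542 bp, 62.7, 1372 bp, 31.5% and 36.0%. CFP-1 peaks above the median gave 735, 52.7%, 344 bp, 42.3, 6894 bp, 20.8% and 36.9%. An overlap of 50% of the shorter interval gave 657, 47.1%, 330 bp, 41.1, 598 bp, 35.5% and 34.9%. Counting CFP-1 within 500 bp gave 346, 24.8%, 308.5 bp, 37.4, 1947.5 bp, 35.5% and 35.3%, and kept 20 of the 29 named regions. As a replicate block, H3K4me3 and CFP-1 lists of the same number gave means of 1099.5, 53.0%, 171 bp, 32.0, 1215 bp, 41.0% and 35.9%, and lists of different numbers 1093.5, 52.7%, 170 bp, 31.7, 1219 bp, 41.5% and 35.6%; the labels do not say that a number marks a shared extract. By base pairs the share was 17.1%. A neighbour with CFP-1 lay within 500 bp of 31.7% and within 2000 bp of 53.3%, and within 1000 bp of 43.4% when single-list calls counted, an alternative chosen after seeing the data. The central 50% of X held 52.9%. Linking at 500 or 2000 bp, also added later, put 90 or 75 regions in stretches without CFP-1, against 87. Of these 84 values, 67 moved by more than the SD of the RC03 and RC04 pairs of lists (for counts, by over 1.5 times). That SD rests on 2 pairs only, so it is a coarse yardstick and no measure of noise around the reported values. Some settings, such as base pairs, the central 50% of X or other neighbour distances, also change the quantity itself. Distances to transcript starts and sequence content were not run. Read depth is unknown and limits what the absence of a peak can show.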

Other observations

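Some regions without CFP-1 followed each other along X without a region with CFP-1 between them. Of 270 such runs 157 held a single region, and the longest held 10 regions between positions 10436303 and 10516987, a span of 80685 bp. Its last 9 regions lay in an interval of 85154 bp with no CFP-1 peak of either list, and 6 of these, from 10503400 to 10506790, formed the largest stretch of linked regions without CFP-1 on X. In that stretch RC03 scores ran from 2.44 to 7.41 and RC04 scores from 3.99 to 7.76, and the widest region spanned 883 bp. The next run, of 9 regions between 16537529 and 16605092, held 8 CFP-1 peaks, counted over both lists. That these peaks lay on none of its H3K4me3 regions follows from the choice of regions. They were 305 bp or more away from them, and the scores of the run reached 24.6 in RC03 and 22.8 in RC04. The 10 longest intervals of X without any CFP-1 peak spanned 71296 to 95429 bp, and 5 of them held no such H3K4me3 region. The run and interval values were singled out after they had been seen, and no test was made on them.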
